A study of Drosophila melanogaster with 3 samples.

Results

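The 8 Hox genes lab, pb, Dfd, Scr, Antp, Ubx, abd-A and Abd-B were examined in a map of Broad binding in whole Drosophila melanogaster larvae. They were taken by name from 13973 nuclear protein-coding genes, and every region counted here had its summit in the annotated body of one of them or within 5 kb of it. Broad is a transcription factor with zinc fingers whose gene responds early to ecdysone, the moulting hormone. The map came from chromatin immunoprecipitation with an antibody against GFP, followed by sequencing, in a transgenic line (strain br-re-GFP) that stably expresses br-RE with GFP at its C-terminus. The 3 biological replicates, which the labels number 2, 3 and 4, form 1 group of wandering larvae of the third instar with males and females pooled, and all of them carried the tagged protein. Which zinc fingers the br-RE form carries, what drives the transgene and whether untagged Broad was present could not be learned from the sources used here. There was no other genotype or stage, so nothing was tested between conditions.

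The Hox genes encode homeodomain transcription factors that set the identity of body segments along the axis from head to tail. In flies they lie in the Antennapedia complex and the bithorax complex, and Polycomb and Trithorax group proteins keep their active or silent state through development. At the wandering stage a rise of ecdysone begins metamorphosis, and the imaginal discs, whose segment identity depends on Hox genes, start to form adult parts.

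The authors deposited ranked lists of regions, each with a signal value from their peak caller, which serves here only to rank and describe regions within 1 list. The optimal list, kept by the authors at an irreproducible discovery rate threshold, held 2533 regions and was identical to the head of the pooled list. The pooled list held 27389 regions, so the optimal cut stood at its strongest 9.25%, at a signal of 88.3. Each replicate list held 30000 regions, including weak ones, and its strongest 2533 regions (8.44% of the list) are called its top regions. The authors label the pooled and replicate lists as peaks and background. A region below the optimal cut therefore need not be a bound site. Read depth is unknown. All 8 genes lie on chromosome arm 3R, their windows did not overlap, and together the windows covered 418 kb of the dm6 assembly.

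Of the Hox genes, Antp alone held regions of the optimal list, and it held 2, both in introns. The other 7 genes had no region above the optimal cut, but each had regions below it, from 3 at lab to 21 at Ubx in the pooled list. Below, 201 bases of the dm6 plus strand are shown around 6 intronic summits on 3R. They include the 4 strongest pooled regions of Antp, of which the 2 optimal ones carry the main finding. The other summits, for comparison, are an intronic region of Ubx and one of Abd-B that were found in all 3 replicates. Letters are from RefSeq Release 6 in lower case, and capitals mark matches, on either strand, to 6 short words: CTATTT for the Z2 form of Broad, AAACTA for its Z3 form, GTAAACA for its Z4 form, GAGAG for GAGA factor, GCCAT for the core of Pho sites and TAATTA for homeodomain proteins. Other forms of Broad were given no word. No matches overlapped each other in these windows.
Antp optimal site of rank 437, chr3R:6914419-6914619: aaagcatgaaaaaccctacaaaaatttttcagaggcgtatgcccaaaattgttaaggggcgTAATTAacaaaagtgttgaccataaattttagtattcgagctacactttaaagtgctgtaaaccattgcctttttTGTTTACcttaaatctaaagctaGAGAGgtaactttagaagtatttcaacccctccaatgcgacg
Antp optimal site of rank 731, chr3R:6951224-6951424: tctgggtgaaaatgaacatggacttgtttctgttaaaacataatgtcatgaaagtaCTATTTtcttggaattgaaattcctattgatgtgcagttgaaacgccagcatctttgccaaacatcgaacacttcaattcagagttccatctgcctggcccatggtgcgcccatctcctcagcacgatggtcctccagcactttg
Antp region of pooled rank 2745, chr3R:6936284-6936484: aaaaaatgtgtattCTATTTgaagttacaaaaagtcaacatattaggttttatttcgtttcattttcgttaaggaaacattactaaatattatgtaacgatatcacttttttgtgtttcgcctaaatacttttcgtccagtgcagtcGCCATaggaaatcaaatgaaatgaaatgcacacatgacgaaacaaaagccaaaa
Antp region of pooled rank 3724, chr3R:6950167-6950367: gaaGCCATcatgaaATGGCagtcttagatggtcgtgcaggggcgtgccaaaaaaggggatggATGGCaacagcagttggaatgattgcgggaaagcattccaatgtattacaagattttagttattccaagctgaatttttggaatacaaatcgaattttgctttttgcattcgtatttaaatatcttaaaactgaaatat
Ubx region of pooled rank 10325, chr3R:16704378-16704578: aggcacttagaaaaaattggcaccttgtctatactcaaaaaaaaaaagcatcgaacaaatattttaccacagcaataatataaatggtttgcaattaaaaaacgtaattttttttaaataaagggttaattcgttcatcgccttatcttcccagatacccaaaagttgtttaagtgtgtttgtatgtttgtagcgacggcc
Abd-B region of pooled rank 20238, chr3R:16948813-16949013: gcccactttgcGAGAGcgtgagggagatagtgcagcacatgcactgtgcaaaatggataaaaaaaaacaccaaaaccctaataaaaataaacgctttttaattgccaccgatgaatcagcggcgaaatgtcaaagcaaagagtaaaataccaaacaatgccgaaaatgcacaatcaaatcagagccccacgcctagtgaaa

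Around the strongest Antp summit, GTAAACA matched on the minus strand 36 bp to the right, GAGAG 59 bp to the right and TAATTA 39 bp to the left. At the site of rank 731 the one match was CTATTT, 44 bp to the left of the summit. The region of rank 2745 held CTATTT 86 bp to the left and GCCAT 47 bp to the right, and that of rank 3724 held GCCAT at 97, 86 and 38 bp to the left. The Ubx window held none of the 6 words, and the Abd-B window held GAGAG 89 bp to the left. AAACTA was in none of these 6 windows. A match says only that these letters are there, and GTAAACA is also the core word of forkhead proteins.

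**Figure D1:**
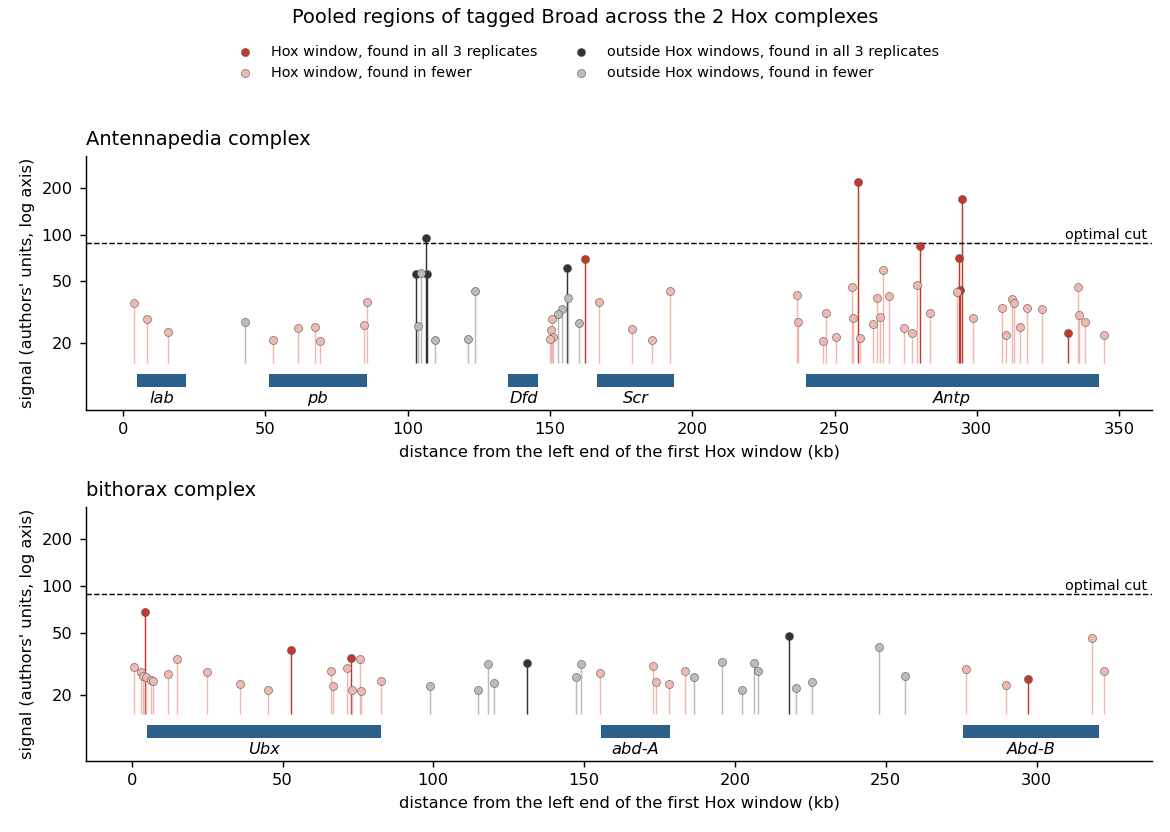
Pooled regions across the Antennapedia complex (upper panel) and the bithorax complex (lower panel), by distance in kb from the left end of the first Hox window, with the authors' signal on a log axis and gene bodies as blue bars. Above the optimal cut at 88.3 (dashed line) stand the 2 intronic Antp sites and 1 region outside the Hox windows, and in the bithorax complex no region reaches it.

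Antp sets the identity of the middle thorax and its legs, and its body is the longest of the 8 (103 kb on the minus strand, 3R 6896253 to 6999228, FBgn0260642). Its window held 2 optimal regions and 36 pooled regions. The first optimal site (summit 6914519, region 6914317 to 6914720) had a pooled signal of 218 and rank 437, which is within the strongest 1.6% of the pooled list. It ranked 384, 730 and 514 in replicates 2, 3 and 4, with signals of 106, 52.4 and 59.3, and the replicate summits lay 39, 4 and 30 bp from the pooled one. In each replicate this was the strongest region of any Hox gene.

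The second optimal site (summit 6951324, region 6951122 to 6951525) lay 36.8 kb from the first, with a pooled signal of 170 and rank 731. It ranked 1058, 2141 and 525 in replicates 2, 3 and 4, with signals of 67.5, 34.5 and 58.8 and summits 1, 32 and 23 bp from the pooled one. Both sites thus lay among the top regions of all 3 replicates, and the second was nearly as strong as the first in replicate 4 but not in replicates 2 and 3. The authors' −log10 q-value was 2.83 at both in the pooled list. In replicate 2 it was 4.06 at Antp regions of rank 384 and of rank 5522 alike, so equal q-values need not mean equal strength.

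Neither site was at an Antp promoter. The annotation gives Antp transcription start sites (TSSs) at 6932840, 6958370 and 6999228. The first site lay 18.3 kb downstream of the nearest of these and 84.7 kb downstream of the most distal one. The second lay 7046 bp downstream of the TSS at 6958370 and 18.5 kb upstream of that at 6932840. Both summits also lie inside CG46458, an annotated gene that overlaps the Antp body, so that assignment to Antp rests on position alone.

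The next regions of Antp stood below the optimal cut and were also intronic. The region of pooled rank 2745 (signal 84.8) was just outside the cut, and ranked 3918, 6883 and 3499 in replicates 2, 3 and 4. The region of rank 3724 (signal 71) ranked 4360, 4986 and 4101. Each had a counterpart in every replicate, but none of these counterparts was a top region. The fifth (summit 6923412, signal 59.3, rank 5091) had a counterpart in replicate 2 only, at rank 3683.

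Replicate 2 alone held further top regions at Antp, at rank 1844 in the upstream flank (summit 7000931) and at rank 2415 in the downstream flank (summit 6893357). The upstream one has a pooled counterpart 581 bp from the TSS of lncRNA:CR45899, at rank 23527, and the downstream one has 2, within 267 bp of the TSS of lncRNA:CR45559, at ranks 9351 and 17514. The single pooled region at an Antp promoter lay 902 bp from the TSS at 6932840, at rank 22406, and its one counterpart was in replicate 3 at rank 8486.

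**Figure D2:**
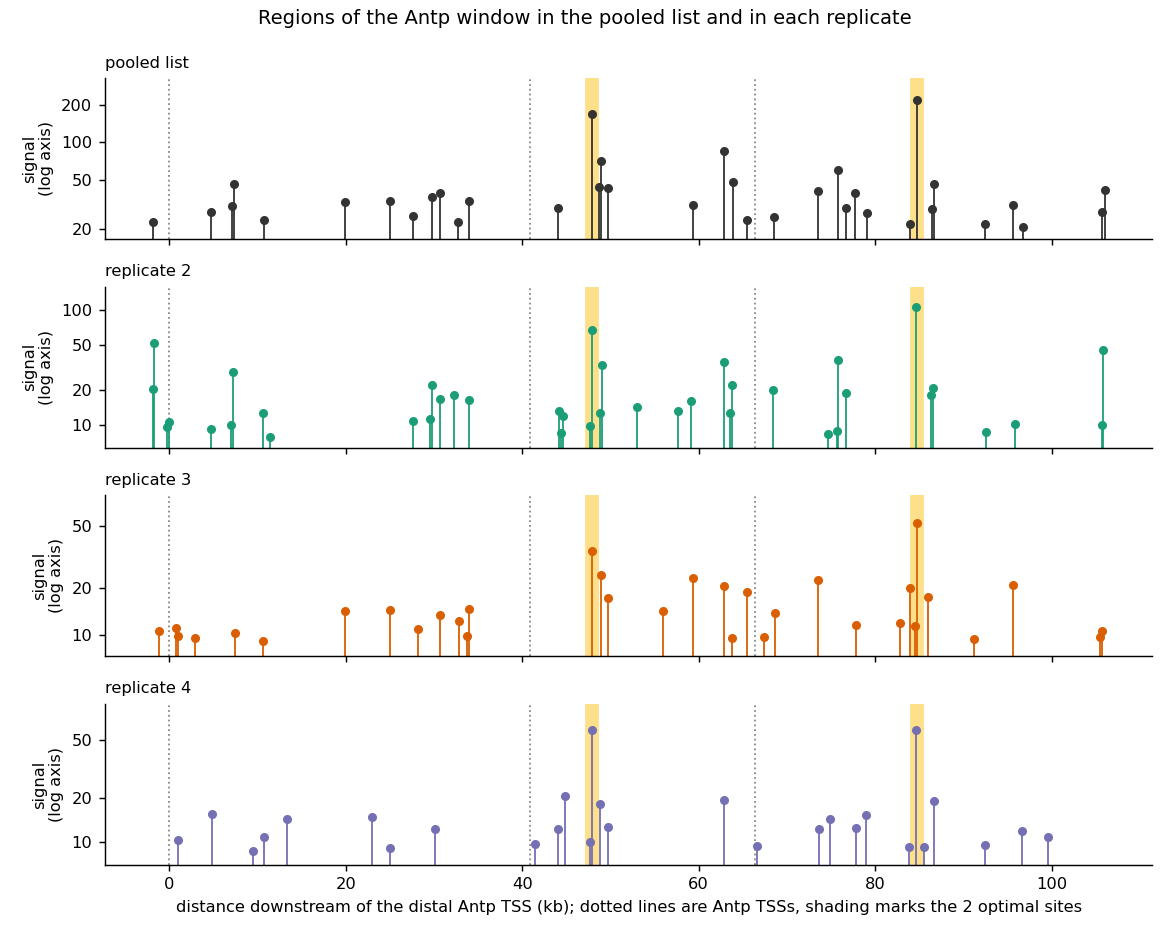
Signal (log axis, scale differs by panel) of every region in the Antp window in the pooled list and in replicates 2, 3 and 4, by distance in kb downstream of the distal TSS. Shading marks the 2 optimal sites, which have the highest 2 signals in each panel, and dotted lines mark the 3 TSSs.

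The optimal list thus had a region in the window of 1 of 8 Hox genes, against 31.8% of all protein-coding genes and 44.2% of the 1986 genes whose body is 10 kb or longer. An optimal region among the top regions of all 3 replicates was present in 1 of 8, against 14.2% of all genes and 24.5% of long genes. Among top regions, 1 Hox gene had one in replicate 2, 2 in replicate 3 and 1 in replicate 4, against 27.8%, 35.4% and 30.5% of all genes. The gene was Antp in each of these lists, with Scr beside it in replicate 3. With 8 genes, counts of 1 and 2 are too coarse to set the Hox genes apart from the rest. By number of optimal regions, 416 of all genes and 195 of the long genes had more than the 2 at Antp.

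All 8 Hox genes had a region in the pooled list, as had 84.5% of all genes and 95.5% of long genes. They also all had one in each of the replicate lists, against 82.2%, 85.4% and 86.3% of all genes in replicates 2, 3 and 4. Presence of a weak region is therefore the common state of a gene in these lists and does not set the Hox genes apart. The pooled list held 85 Hox regions, which merged into 76 separate stretches, and the replicates held 78, 84 and 102 (88 ± 12.5, SD, n = 3).

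Counts grow with gene length, so regions per 10 kb of window were compared. In the replicate lists the Hox windows held 1.87, 2.01 and 2.44 regions per 10 kb in replicates 2, 3 and 4, against 2.45, 2.5 and 2.38 in the windows of all protein-coding genes. The ratio was 0.864 ± 0.141 (SD, n = 3), below 1 in replicates 2 and 3 and 1.03 in replicate 4. Weak regions therefore differed from the background by an amount near the spread between replicates.

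Among strong regions the gap was wider. The top regions gave 0.0719 ± 0.024 per 10 kb of Hox window, against 0.212 ± 0.0028 for all genes (SD, n = 3). The ratios were 0.459, 0.335 and 0.226 in replicates 2, 3 and 4, all below 1, on only 4, 3 and 2 Hox regions. In the optimal list the ratio was 0.228, from 2 regions. Likewise, the median pooled signal was 28.2 in Hox windows, against 32.3 in the windows of all genes, and 34.1% of the Hox regions stood in the upper 50% of the pooled list.

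Antp carried most of the strong regions and was denser than the other Hox genes in the pooled list. It had 3.19 pooled regions per 10 kb, and 3.54, 3.01 and 2.48 in replicates 2, 3 and 4, which is 1.23 ± 0.202 times all genes (SD, n = 3). The 7 other windows, 305 kb in all, held 49 pooled regions (1.61 per 10 kb) and 1.25, 1.64 and 2.43 per 10 kb in the replicates, 0.729 ± 0.263 times all genes. Replicate 4 brought the Antp density and that of the others together, while they were well apart in replicate 2. Among strong regions Antp stood at 0.843 times all genes in the optimal list and at 1.7, 0.826 and 0.834 times in the top regions of replicates 2, 3 and 4. The 7 others had no optimal region, and among top regions 1, in replicate 3 (0.153 times all genes). In the full pooled list the Antp density was exceeded by 35.9% of all genes, although only 48 genes had more pooled regions than its 36.

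Of the pooled Hox regions in the strongest 25% of the list, 5 were at Antp and 2 at the other genes, and in the strongest 10% there were 2, both at Antp. Replicate lists gave mean densities per 10 kb in the order Antp (3.01 ± 0.531), lab (2.09 ± 0.926), Scr (1.99 ± 0.414), Dfd (1.94 ± 1.75), Ubx (1.82 ± 0.114), pb (1.81 ± 1.26), abd-A (1.52 ± 1.1) and Abd-B (1.45 ± 0.833), all SD with n = 3. The replicate ranges of every pair of neighbours in this order overlapped. Within each replicate Antp was still above lab, and pb above abd-A, while the other neighbours changed order between replicates. Further apart in the order, the lowest Antp value (2.48) was above the highest of Scr (2.44), Abd-B (2.36) and Ubx (1.94). That lowest value came from replicate 4, where Dfd (3.88), pb (3.16) and abd-A (2.74) were denser than Antp. Antp was thus the densest Hox gene in replicates 2 and 3 but not in replicate 4.

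**Figure D3:**
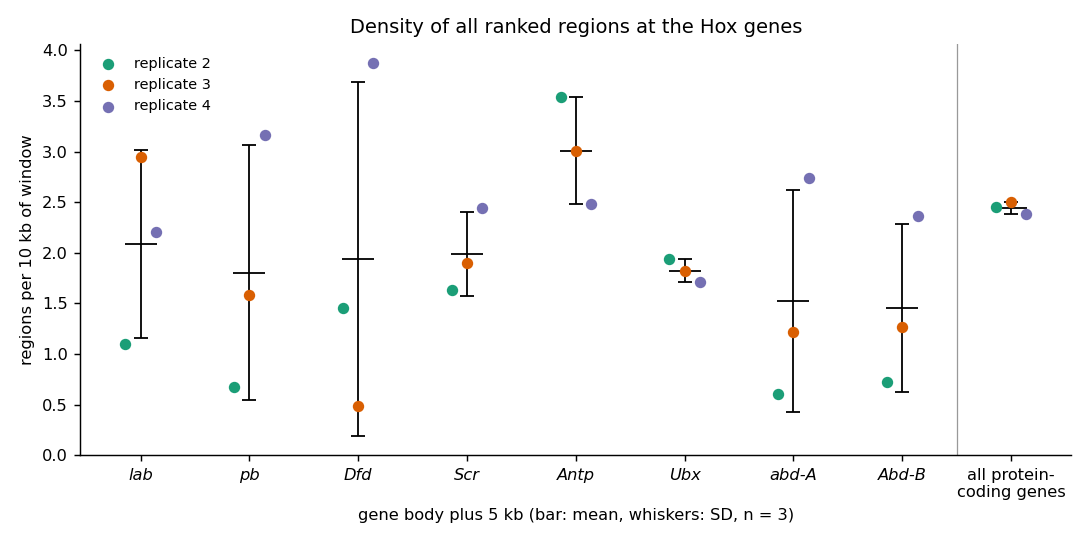
Regions per 10 kb of gene window in the full lists of replicates 2, 3 and 4 (points), with mean and SD (n = 3), for each Hox gene and for all protein-coding genes. Antp lies at 3.01 ± 0.531, all genes at 2.44 ± 0.0574, and Dfd, pb and abd-A spread most between replicates.

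The head genes lab, pb and Dfd held 3, 6 and 4 pooled regions, none of them stronger than rank 11122. The gene lab (6661427 to 6678590, minus strand) acts in the embryonic head and the midgut, and its window held 3, 8 and 6 regions in replicates 2, 3 and 4. Its strongest pooled region (summit 6660351, signal 36.5, rank 11144) lay in the downstream flank 251 bp from the TSS of agt, with a counterpart in replicate 3 only. Its best ranks in replicates 2, 3 and 4 were 16842, 12273 and 13276, which is 56.1%, 40.9% and 44.3% of the way down each list.

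The gene pb (6707800 to 6742063, minus strand) specifies the adult mouthparts. Its window held 6 pooled regions and 3, 7 and 14 in replicates 2, 3 and 4. The strongest pooled one sat 18 bp from its single TSS (summit 6742081, signal 36.6, rank 11122) and was found in replicate 2 at rank 6423, but not within 200 bp in replicates 3 and 4. Replicate 4 had its own strongest pb region in the downstream flank (summit 6705176, rank 3416) and 12 intronic ones. One of these, at rank 4319, had a pooled counterpart at rank 19537 (summit 6724053) and one in replicate 2 at rank 23993.

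Dfd (6791836 to 6802428, plus strand) acts in the maxillary and mandibular segments. Its 4 pooled regions all lay in the downstream flank, with summits from 6806588 to 6807379, and overlapped to form 1 stretch. The strongest had a signal of 28.8 and rank 16126. The pooled list had no region in the Dfd body or at its promoter. In replicate 2 a promoter region lay 135 bp from the TSS (rank 6009), in replicate 4 one lay 804 bp away (rank 12991), and replicate 3 had none.

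Scr (6823120 to 6849981, minus strand) sets the labial and anterior thoracic segments and is needed for the larval salivary glands. Its window held 5 pooled regions and 6, 7 and 9 in replicates 2, 3 and 4. The strongest (summit 6818904, signal 69.8, rank 3852) lay in the downstream flank, 990 bp from the TSS of tRNA:Lys-TTT-2-1. It ranked 1743 in replicate 3, where it was the one top region of a Hox gene other than Antp, but 8079 in replicate 2 and 19312 in replicate 4. At the Scr promoter, 273 bp from a TSS, a pooled region of rank 8419 (summit 6848778, signal 43.5) was found in replicate 2 at rank 4636 and in neither of the others.

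Ubx (16656623 to 16734426, minus strand) sets the posterior thorax and the haltere, and came next to Antp in number of regions. It had 21 in the pooled list and 17, 16 and 15 in replicates 2, 3 and 4, and 186 of all genes had more pooled regions. The strongest (summit 16655895, signal 67.8, rank 4059) lay in the downstream flank 233 bp from the TSS of modSP, with its summit inside an annotated INE-1 transposon. It ranked 5132, 19408 and 4057 in replicates 2, 3 and 4. It was the one pooled Hox region with a summit in an annotated transposon, 1.18% of them, against 0.713% over the windows of all genes.

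Inside the Ubx body 13 pooled regions were intronic, and 2 of these were found in all 3 replicates. The first (summit 16704478, signal 38.4, rank 10325) ranked 14415, 27277 and 9473 in replicates 2, 3 and 4. The second (summit 16724405, signal 34.3, rank 12281) ranked 20433, 11146 and 11289. Both were thus listed in every replicate but far below its top regions. Their −log10 q-values in the pooled list were 0.571 and 0.409, against 2.83 at the optimal Antp sites. The Ubx promoter held 1 pooled region, 149 bp from the TSS, at rank 20804, with a counterpart in replicate 3 at rank 15355.

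The abdominal genes abd-A and Abd-B had 5 pooled regions each. The gene abd-A (16807214 to 16830049, minus strand), which patterns the anterior abdomen, had 2, 4 and 9 in replicates 2, 3 and 4, and its strongest pooled region was intronic (summit 16824536, signal 30.5, rank 14737) with a counterpart in replicate 4 only, at rank 4267. A pooled region 7 bp from a TSS of abd-A had rank 22198 and a counterpart in replicate 3 at rank 15905, and a region of replicate 2 (rank 20497) overlapped it with a summit 293 bp away.

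Abd-B (16927212 to 16972236, minus strand), which patterns the posterior abdomen and genitalia, had 4, 7 and 13 regions in replicates 2, 3 and 4. Its strongest pooled region was intronic, 1440 bp from a TSS (summit 16970014, signal 46.4, rank 7629), and ranked 7065 and 10264 in replicates 2 and 3. In replicate 4 the strongest region of the Abd-B window (rank 3122) overlapped it, with a summit 312 bp away, beyond the 200 bp that count as a counterpart. A weaker intronic one (summit 16948913, rank 20238) was found in all 3, at ranks 23988, 24050 and 18741. Its −log10 q-value in the pooled list was 0.115. The pooled list had no region at any of the 6 TSSs of Abd-B.

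**Figure D4:**
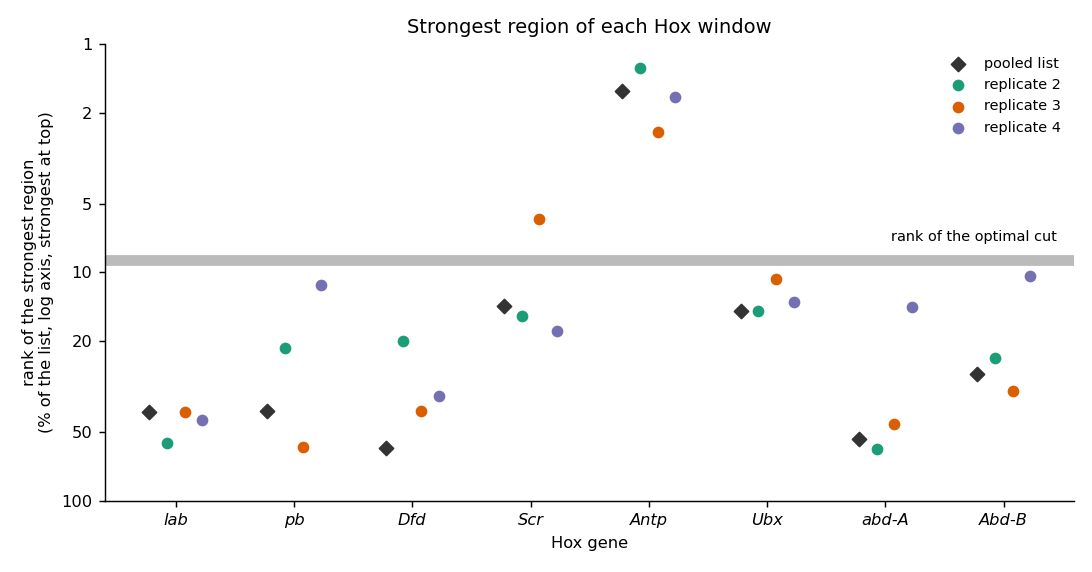
Rank of the strongest region in each Hox window, as percent of its list on a log axis with the strongest at the top, in the pooled list and in replicates 2, 3 and 4. All 4 Antp points lie within the strongest 2.43% of their lists, and of the other genes only Scr in replicate 3 (5.81%) lies above the grey band at the optimal cut (8.44% to 9.25%).

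Hox regions lay mostly in introns. Of the 85 pooled regions, 58 (68.2%) were intronic, 14 (16.5%) in the downstream flank, 6 (7.06%, exact 95% interval 2.63 to 14.7) within 1 kb of an own TSS, 4 (4.71%) in exons and 3 in the upstream flank. In replicates 2, 3 and 4 introns held 70.5%, 54.8% and 66.7% of the Hox regions (64% ± 8.21, SD, n = 3). In the windows of genes of 10 kb or longer, 47.7%, 48.7% and 57.8% of placements were intronic (51.4% ± 5.58). Over all genes the share was 19.6% ± 4.32. Windows of other genes can overlap, and there a region was counted once for each window that held it. In the pooled list 25238 regions gave 59090 placements over all genes. Each Hox region was counted once, so these shares are not like for like. The Hox share was above that of long genes in each replicate, by the least in replicate 3, and how much of the Hox windows is intron was not set against this. The interval covers counting error only, and regions that overlap or share a gene are not independent.

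Hox promoters were listed in the pooled list at 5 of 8 genes (pb, Scr, Antp, Ubx and abd-A), against 54.7% of all genes, and in the optimal list at 0 of 8, against 13.5%. The strongest of the 6 promoter regions were at Scr (rank 8419) and pb (rank 11122), the others ranked from 18689 to 22406, and each of the 6 had a counterpart within 200 bp in 1 replicate. None of lab, Dfd and Abd-B had a pooled region within 1 kb of an own TSS. In the replicate lists Abd-B had 1, 2 and 2 such regions in replicates 2, 3 and 4, lab had 1 in replicate 3, and Dfd had 1 each in replicates 2 and 4, as given above.

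By share of regions, summits near promoters were fewer in the Hox windows. Within 1 kb of a TSS of any protein-coding gene lay 17.9%, 22.6% and 12.7% of the Hox regions in replicates 2, 3 and 4, against 46.2%, 41.4% and 28.2% of those in all gene windows. The means were 17.8% ± 4.94 and 38.6% ± 9.33 (SD, n = 3), and the Hox share was lower in each of the 3 replicates. In the windows of genes of 10 kb or longer, where there is more intron per TSS, the shares were 38.3%, 33.6% and 22.3%, also above the Hox share in each replicate. How many coding TSSs the Hox windows hold per kb was not set against these shares. A lower share therefore does not show that promoters were avoided. In the pooled list 11 of the 85 Hox regions lay near a coding TSS, and 6 of these near a Hox TSS. The others lay near the TSSs of the neighbours modSP, agt and CG14907.

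**Figure D5:**
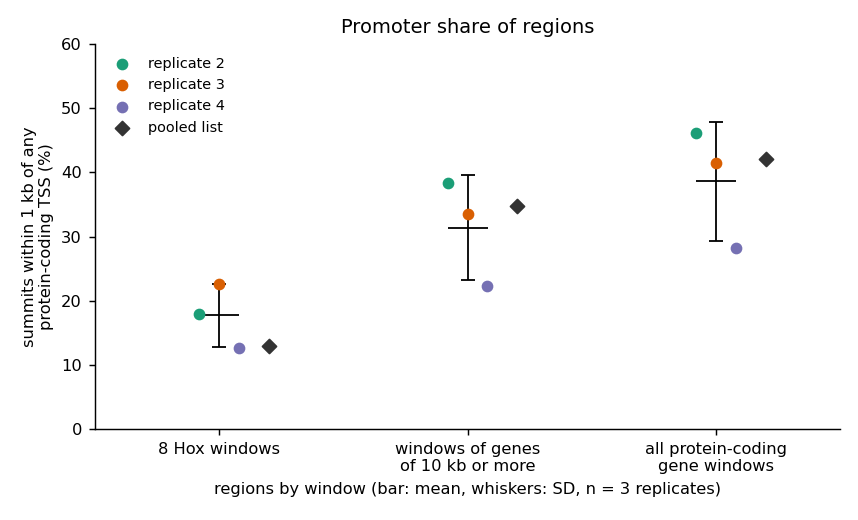
Share of regions with a summit within 1 kb of the TSS of any protein-coding gene in Hox windows, in windows of genes of 10 kb or longer and in all gene windows, for replicates 2, 3 and 4 (points), their mean and SD (n = 3) and the pooled list. The Hox share is lowest in every list, at 17.8% ± 4.94 over the replicates, but the density of TSSs in the windows was not set against it.

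Counterparts were sought within 200 bp in each replicate. Of the 85 pooled Hox regions, 11 (12.9%) were found in all 3 replicates, 32 in 2, 37 in 1 and 5 in none. Over the windows of all genes 20.6% were found in all 3. Below the optimal cut alone the shares were closer, at 9 of 83 (10.8%) against 14.2%. The 11 comprised 6 of the 36 at Antp, 3 at Ubx, 1 at Scr and 1 at Abd-B, and 1 replicate region can be the counterpart of more than 1 pooled region. lab, pb, Dfd and abd-A had no pooled region with a counterpart in all 3. At Dfd this depended on the 200 bp limit. The pooled region with summit 6806881 had counterparts in replicates 2 and 4, and a replicate 3 region overlapped it with a summit 218 bp away. The pooled list was made from these replicates, so finding a region again is no independent test.

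Words were counted on both strands within 100 bp of each pooled summit. AAACTA was in 27.1% of the 85 Hox windows (exact 95% interval 18 to 37.8), against 18.3% of the windows of all 27362 nuclear pooled regions. GAGAG was in 32.9% (23.1 to 44) against 23.3%, GCCAT in 35.3% (25.2 to 46.4) against 29.3%, TAATTA in 18.8% (11.2 to 28.8) against 15.8% and GTAAACA in 8.24% (3.38 to 16.2) against 5.72%. CTATTT was the one word less common at the Hox regions, in 15.3% (8.4 to 24.7) against 17.7%. The background share lay inside the interval for every word, so none of these shares over the 8 genes stood apart from it by more than counting error. In the 36 Antp windows, GCCAT was in 19, GAGAG in 13, CTATTT and AAACTA in 7 each, TAATTA in 4 and GTAAACA in 2. No interval was made for Antp alone. G and C made up 38% of the Hox windows and 37.9% of all windows. In the 2510 nuclear windows of the optimal list, the words beside the strongest Antp summit were in 6.37% (GTAAACA), 26.5% (GAGAG) and 16.2% (TAATTA), and the word of the other site, CTATTT, was in 20.4%.

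The larvae were taken whole, and each Hox gene is active in its own segments and tissues. In such chromatin a site bound in few cells and a site bound weakly in many cannot be told apart. A gene without a region above the cut may be bound in part of the larva, which was not tested.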

How the data were processed

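Per the labels, chromatin was sonicated to 200 to 800 bp. The authors deposited narrowPeak lists for dm6: 1 per replicate, 1 made from all 3 replicates together and 1 kept by an irreproducible discovery rate threshold (optimal). The signal of each region and its −log10 q-value are the authors' deposited values. Which aligner, peak caller and normalization they used is not given in the sources used here. Read depth is unknown and no control library was analysed here, so intervals cover counting error only. The 5 dm3 lists were not used.

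A region's rank is its order by signal within 1 list, and positions are 1-based. Genes and TSSs came from Ensembl release 115 (BDGP 6.54) and sequence from RefSeq Release 6. All region ends lay within its chromosomes. Place was assigned in the order promoter (summit within 1000 bp of an own TSS), exon, intron and flank. Summits within 200 bp counted as one site across lists. No test was made, since there was 1 group. Shares and densities are set beside those of all protein-coding genes, with the mean and SD over 3 replicates. The labels call these biological replicates and do not say how the larvae of each were collected.

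All 8 Hox genes are named with their values. Of the other gene lists, the best-ranked members and those with no pooled region are named, at most 4 each. In the cofactor list btn and bin are named as well. The Hox genes, the lists and the words were chosen with earlier results of these data known. Alternatives changed the flank, the promoter distance, the strength cut, the overlap rule, the word window and the replicates used. Without Antp and within 3R only were added after seeing the data, as were the share of summits near any coding TSS and the intron share of other genes. Python 3.11.15, numpy 2.4.6, scipy 1.17.1 and matplotlib 3.10.9 were used, and the counting was tested on simulated data.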

Additional observations from a re-analysis of the deposited data

How the results depend on the processing

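The 2 optimal regions of Antp were counted under every flank, overlap rule and strength cut tried. Of 67 alternatives, 17 moved the value by more than the replicate SD (density ratio and median rank), the exact 95% interval (shares) or 1.5 times (counts), and 50 did not. Keeping the upper 50% of each list left 29 pooled Hox regions, 1.67 ± 0.577 top regions, 36 ± 6.56 regions per replicate list and a density ratio of 0.7 ± 0.145 to all genes. Pooled regions found in all replicates numbered 6 within 100 bp and 18 within 500 bp, against 11 within 200 bp, and 19 to 24 when only 2 replicates had to agree. Leaving out each replicate gave 2.5 to 3.5 top regions, 81 to 93 regions per list and density ratios from 0.784 to 0.916. The ratio was 0.729 ± 0.263 without Antp and 0.904 ± 0.107 against genes of 3R alone (SD, n = 3). The promoter share ran from 4.71% (500 bp) to 11.8% (2000 bp). Windows of 50 bp to either side held CTATTT in 7.06% (all regions 9.2%), AAACTA in 16.5% (9.86%), GTAAACA in 2.35% (2.83%), GAGAG in 18.8% (12.2%), GCCAT in 16.5% (15.5%) and TAATTA in 8.24% (8.33%). Windows of 150 bp held CTATTT in 25.9% (24.8%) and GCCAT in 49.4% (40.8%), and shorter windows hold fewer words by construction. No paired analysis was possible because there was 1 group. Counts of strong Hox regions are so small that 1 region changes them, and depth, the control library and the cells that carry each site limit what weak regions show.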

Other observations

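Of the 5 other genes of the Antennapedia complex, 2 had an optimal region, against 31.8% of all protein-coding genes. Both had the same region. It lay 322 bp from the TSS of Ama, which encodes a cell adhesion protein (summit 6763082, signal 94.7, rank 2226), inside the windows of Ama and of bcd, the anterior determinant of the embryo. It ranked 4129, 1037 and 7593 in replicates 2, 3 and 4, so it was a top region of replicate 3 only. The pooled list had no region at zen or ftz, so 3 of the 5 had one, against 84.5% of all protein-coding genes. With 5 genes these counts are too coarse to set the list apart. The 5 genes had 1.97 ± 0.86 regions per 10 kb, against 2.44 ± 0.0574 for all protein-coding genes (SD, n = 3 replicates).

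Of the noncoding RNA genes of the complexes 8 of 9 were matched. All 8 had pooled regions, 34 in all, and none was optimal. Of protein-coding genes, 84.5% had a pooled region and 31.8% an optimal one, so neither count is a result about a list this short. The best ranks were 4906 in the window of mir-10 and 7340 in that of lncRNA:iab8, where the summit at 16869388 (signal 47.4) ranked 5261, 7967 and 10345 in replicates 2, 3 and 4. From the start of Ubx to the end of Abd-B, 316 kb, there were 42 pooled regions, of which 17 lay outside the Hox windows and none was optimal. The bithorax complex held 1.01, 1.49 and 2 regions per 10 kb in replicates 2, 3 and 4, and the Antennapedia complex, from lab to Antp, held 1.89, 2.16 and 2.63. The bithorax density was lower in each replicate, and no test was made.

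A list of 10 genes held Hox cofactors and co-regulators, and also btn and bin. All 10 had pooled regions, against 84.5% of all protein-coding genes, and 1 had an optimal one, against 31.8%. This was hth, which encodes the homeodomain cofactor that carries Exd into the nucleus. Its optimal region ranked 1461, and 1874, 1741 and 1564 in replicates 2, 3 and 4, and hth held 61 of the 107 pooled regions of that list. The 10 genes had 3.32 ± 0.689 regions per 10 kb, against 2.44 ± 0.0574 for all protein-coding genes (SD, n = 3). Of 29 matched homeobox and paired genes outside the complexes, 7 had an optimal region, against 31.8% of all protein-coding genes, at best ranks 218 (tup), 719 (tin), 1168 (inv) and 1315 (caup). In the pooled list 23 of the 29 had a region, against 84.5%, and those without one included eve, B-H1, ind and slou. The 29 genes had 2.24 ± 0.053 regions per 10 kb, against 2.44 ± 0.0574 for all protein-coding genes (SD, n = 3).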
